A study of Mus musculus with 4 samples.

Results

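The 8 genes described here write, maintain or remove methylation on cytosines of CpG dinucleotides: Dnmt1, Dnmt3a, Dnmt3b, Uhrf1, Tet1, Tet2, Tet3 and Tdg. They were taken by name from a table of 52636 gene lines, by a rule that uses no measured value, although earlier results of these data were known when the set was drawn up. All 8 were found. Gene expression had been measured in mouse Hoxb8 cells. The name is that of a homeobox gene whose forced expression keeps myeloid progenitors dividing in culture. The QuantSeq libraries were primed from poly(A) tails and yield about 1 tag per transcript, near its 3′ end. There were 2 libraries of cells carrying an empty vector (EV) and 2 of cells expressing DNMT3A R882H, a substitution of the de novo methyltransferase that recurs in acute myeloid leukaemia. The labels give the same cell line for both groups and name no time point or treatment, and they do not say whether the introduced cDNA was of human or mouse origin, which promoter drove it, or whether a group was 1 clone. Transcripts of 4 Y-linked genes summed to 2 and 4 counts in EV and to 110 and 87 in R882H, while Xist had 1438 to 1880 counts in every library. Whether both groups derive from 1 animal or clone is not stated, and a difference of origin cannot be told apart from R882H in any fold given here. Each library held 5470330 to 5921985 counts, and a count of 0 allowed up to 3 counts, or 0.507 to 0.548 CPM (counts per 1000000 counts of the library). The labels do not state whether the 2 libraries of a group stem from different cultures, and p-values reflect their spread, which may be technical.

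DNMT3A and DNMT3B place methyl groups on unmethylated CpGs. DNMT1 copies the pattern onto the new strand after DNA replication, and UHRF1 brings it to hemimethylated sites. The TET dioxygenases oxidise 5-methylcytosine stepwise with 2-oxoglutarate and iron, and TDG, a DNA glycosylase, excises the most oxidised forms so that base excision repair can restore cytosine. In blood progenitors DNMT3A and TET2 are among the genes most often mutated in clonal haematopoiesis and myeloid leukaemia.

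The codon at issue is shown first, because it lies far from where the tags were counted. In the longest annotated mouse transcript (GENCODE M21, mm10) the arginine codon that corresponds to the human R882 position is codon 878 of Dnmt3a, a CGC with a CpG inside it, and the same position of Dnmt3b is also a CGC. Both coding stretches are given on the plus strand, each within 1 exon, with that codon in capitals.
Dnmt3a chr12:3907622-3907684: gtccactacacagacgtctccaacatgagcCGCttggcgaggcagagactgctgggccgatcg
Dnmt3b chr2:153686274-153686336: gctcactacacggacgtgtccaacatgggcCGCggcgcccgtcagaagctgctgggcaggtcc
The 2 stretches of 63 bases share 47 bases. In the Dnmt3a transcript the codon lies 6789 bases upstream of the 3′ end, so 3′ tags do not read it, and 6696 bases follow the stop codon. A cDNA without that tail would not be counted at the same place. The Dnmt3a count therefore does not check the group labels and does not separate endogenous from introduced transcripts.

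Of the 8 genes, Tet3 fell in the R882H cells, Tet1 had too few counts to be tested, and the other 6 did not pass the test (edgeR quasi-likelihood test, Benjamini-Hochberg adjusted p under 0.05). So 1 of 7 tested genes was called, beside 38.8% of all 11444 tested genes in either direction (19.3% higher and 19.4% lower in R882H). The share of all tested genes called was 29.8% without EV replicate 2, 25.1% without R882H replicate 1, 26.8% when R882H replicate 2 was left out and 25.5% in DESeq2. The median absolute log2 fold change of the 7 was 0.20, beside 0.36 over all tested genes, with changes from −0.71 to 0.28. The R882H libraries lay entirely on one side of the EV libraries for 4 of the 7 (Dnmt3a, Tet2, Tet3 and Tdg), beside 69.1% of all tested genes. In bulk RNA, fewer cells of a type and less RNA per cell cannot be told apart. Values below are CPM after TMM scaling, as mean ± SD with n = 2 libraries per group, and log2 fold changes are R882H over EV with the standard error of the edgeR fit.

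**Figure D1:**
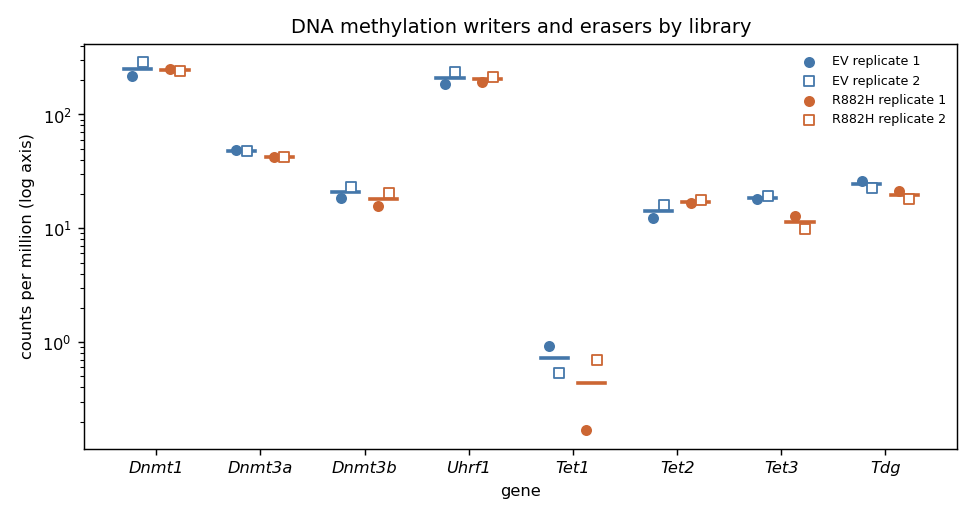
CPM of the 8 genes on a log axis, with 1 point per library (circles replicate 1, squares replicate 2) and lines at the group means. Dnmt1 and Uhrf1 lie near 200 CPM or above, Tet1 under 1 CPM, and the R882H points of Tet3 lie below both EV points.

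Levels ran from Dnmt1 at the top to Tet1 at the bottom; with about 1 tag per transcript, CPM can be set side by side between genes without a length correction, though priming may differ between 3′ ends. In EV the order was Dnmt1, Uhrf1, Dnmt3a, Tdg, Dnmt3b, Tet3, Tet2 and Tet1. There the ranges over libraries overlapped between Dnmt1 and Uhrf1, between Tdg and Dnmt3b, and between Dnmt3b and Tet3. In R882H the order was the same except that Tet2 stood above Tet3, and there the ranges of Tdg and Dnmt3b, and of Dnmt3b and Tet2, overlapped. Within a library, Dnmt1 had more counts than Uhrf1 in 4 of 4 libraries, and Dnmt3b more than Tet3 in both EV libraries. Tdg had more than Dnmt3b in 2 of 4 libraries, and Dnmt3b more than Tet2 in 1 of the 2 R882H libraries, so these neighbours had no constant order. Dnmt1 and Uhrf1 together made up 76.4% and 80.2% of the counts of the 8 genes with the vector and 80.3% and 80.7% with the variant.

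The libraries of the 2 groups overlapped for both maintenance genes. Dnmt1 (ENSMUSG00000004099, mm10 chromosome 9, 20907209 to 20959888, minus strand) had 1180 and 1625 counts in EV and 1509 and 1373 in R882H, or 216 and 287 CPM against 252 and 241 CPM. Both R882H libraries lay between the 2 EV libraries. The log2 fold change was −0.03 ± 0.14 (95% interval −0.31 to 0.25, edgeR adjusted p = 0.891). Uhrf1 (ENSMUSG00000001228, chromosome 17, 56303321 to 56323486, plus strand) showed the same arrangement, with 185 and 236 CPM in EV and 193 and 215 CPM in R882H. Its log2 fold change was −0.05 ± 0.14 (95% interval −0.32 to 0.23, edgeR adjusted p = 0.819). For both genes EV replicate 1 was the lowest and EV replicate 2 the highest of the 4 libraries. Without EV replicate 2 the log2 fold change was 0.18 for Dnmt1 and 0.13 for Uhrf1, and without EV replicate 1 it was −0.22 for both, none of them called.

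The start regions with the most CpGs are shown for Dnmt1 and Uhrf1. Their lowest and highest libraries were also those of other genes, such as Trim28 and Ehmt2, but not of Pcna or E2f1. The cause of this arrangement was not tested. The windows are those of RefSeq on GRCm38.p6, from 250 bases before to 50 bases after an annotated start. Capitals mark TTTNNCGC, a letter pattern of the kind bound by E2F factors, on either strand.
Dnmt1 chr9:20952574-20952873, minus strand: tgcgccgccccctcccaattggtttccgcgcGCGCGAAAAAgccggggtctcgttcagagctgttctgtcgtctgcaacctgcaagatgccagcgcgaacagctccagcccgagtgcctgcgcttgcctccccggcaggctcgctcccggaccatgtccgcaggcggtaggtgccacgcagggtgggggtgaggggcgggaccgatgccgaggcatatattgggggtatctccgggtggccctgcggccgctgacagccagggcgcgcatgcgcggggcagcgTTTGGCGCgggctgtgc
Uhrf1 chr17:56304063-56304362, plus strand: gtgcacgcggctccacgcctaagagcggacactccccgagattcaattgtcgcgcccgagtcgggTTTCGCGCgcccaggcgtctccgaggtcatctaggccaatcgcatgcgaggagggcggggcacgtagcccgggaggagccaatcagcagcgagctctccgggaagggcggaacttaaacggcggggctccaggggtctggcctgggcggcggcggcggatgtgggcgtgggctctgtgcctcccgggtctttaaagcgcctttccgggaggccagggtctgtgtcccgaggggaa
The Dnmt1 window holds 3 matches, of which 2 on the reverse strand overlap at offsets of −219 and −217 bases from the start and 1 lies at +33, and the Uhrf1 window holds 1, at −185. Among 32851 windows of the same length over all genes, 5.17% hold the pattern. The pattern itself holds a CpG, and its share among windows as rich in CpGs as those shown was not computed. Each of the windows shown has 33 CpGs, against a median of 7 over all windows. The other Dnmt1 windows (chr9:20952930-20953229 with 12 CpGs and chr9:20959839-20960138 with 2) hold no match, and the other Uhrf1 window (chr17:56303087-56303386, 12 CpGs) holds 1, at −56. Both windows shown lie inside their genes, and offsets are from a RefSeq start within the gene. The annotated 5′ ends, 20959888 for Dnmt1 and 56303321 for Uhrf1, fall in chr9:20959839-20960138 and chr17:56303087-56303386. The pattern was found in none of the windows of the other 6 genes, and no match says only that these letters are not in those windows.

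Dnmt1 and Uhrf1 are transcribed mainly in replicating cells, so genes of DNA replication were read beside them. Summed over 20 S phase genes, levels were 3687 and 3861 CPM in EV and 3858 and 4033 CPM in R882H. Of the 20, 2 rose and 3 fell (25%, below the 38.8% of all tested genes), with a median log2 fold change of 0.01. Rrm2, the small subunit of ribonucleotide reductase, fell from 243 ± 24.1 to 158 ± 6.70 CPM (log2 fold change −0.62 ± 0.13, edgeR adjusted p = 0.000321). Chaf1b, a subunit of the chromatin assembly factor CAF-1, fell (−0.54 ± 0.13), and the helicase subunit Mcm6 rose from 464 ± 4.52 to 643 ± 14.3 CPM (0.47 ± 0.13). The cyclin gene Ccne1 (−0.43 ± 0.16) and the replication helicase gene Gins2 (0.33 ± 0.13, exons shared with Gse1) passed near the threshold (edgeR adjusted p = 0.0342 and 0.0445). Ccne1 lost its call in 3 of 12 alternatives (adjusted p up to 0.351) and Gins2 in 8 of 11 (up to 0.200). Chaf1b and Mcm6 lost their calls without R882H replicate 1 (edgeR adjusted p = 0.0560 and 0.0866), and Mcm6 also without R882H replicate 2 (0.0502); without R882H replicate 1 the list held 1 call, and 3 without R882H replicate 2 and in DESeq2. Of 10 genes of G2 and mitosis, 2 rose and 1 fell (30%, beside 38.8% of all tested genes). Among them the kinase gene Cdk1 rose (0.51 ± 0.14), not called without R882H replicate 2 (adjusted p = 0.0547), where the list held 0 calls, and it held 1 without R882H replicate 1. Top2a (0.36 ± 0.13) and Plk1 (−0.33 ± 0.13) passed near the threshold (edgeR adjusted p = 0.0345 and 0.0478). Top2a lost its call in 3 of 12 alternatives (adjusted p up to 0.2996) and Plk1 in 7 of 12 (up to 0.493).

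The de novo methyltransferase genes gave slightly lower values in R882H that did not pass the test. Dnmt3a (ENSMUSG00000020661, chromosome 12, 3806007 to 3914443, plus strand) had 48.4 and 47.7 CPM in EV and 42.5 and 42.0 CPM in R882H. The libraries of a group were nearly equal and the groups did not overlap, yet the log2 fold change of −0.19 ± 0.15 had a 95% interval of −0.49 to 0.11 (edgeR adjusted p = 0.334). Its value moved little over 12 alternative analyses, from −0.20 to −0.16. Dnmt3b (ENSMUSG00000027478, chromosome 2, 153649450 to 153687730, plus strand) had 18.3 and 23.1 CPM in EV and 15.7 and 20.5 CPM in R882H, with overlapping groups. The log2 fold change was −0.20 ± 0.19 (95% interval −0.59 to 0.20, edgeR adjusted p = 0.446), and it ran from −0.38 to −0.0012 when 1 library at a time was left out. Dnmt3b made up 27.5% and 32.7% of the counts of Dnmt3a and Dnmt3b in EV and 27.0% and 32.9% in R882H, a difference of −0.13 percentage points. The processed pseudogene Dnmt3a-ps1 had no counts.

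**Figure D2:**
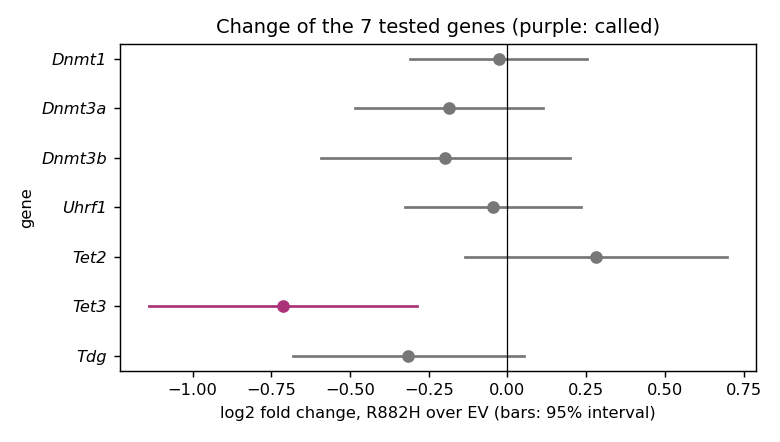
Log2 fold change of each tested gene, R882H over EV, with its 95% interval from the edgeR fit on 4 libraries. Tet3 alone, in purple, has an interval that lies wholly below 0, from −1.14 to −0.29.

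Among the TET genes, Tet3 (ENSMUSG00000034832, chromosome 6, 83362373 to 83459084, minus strand) fell. Its counts were 98 and 108 in EV and 76 and 56 in R882H, or 17.97 and 19.1 CPM against 12.7 and 9.83 CPM. Both R882H libraries were below both EV libraries, and R882H replicate 2 was the lowest. Group means were 18.5 ± 0.772 and 11.3 ± 2.04 CPM, a log2 fold change of −0.71 ± 0.21 (95% interval −1.14 to −0.29, edgeR adjusted p = 0.00699). The direction held in all 12 alternative analyses. The adjusted p was 0.0503 with EV replicate 2 left out (edgeR), 0.129 with R882H replicate 2 left out (log2 fold change −0.53) and 0.0648 in DESeq2, so the call was lost in each.

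Tet2 (ENSMUSG00000040943, chromosome 3, 133463679 to 133545139, minus strand) leaned the other way without passing the test. It had 67 and 90 counts in EV and 100 and 100 in R882H, or 12.3 and 15.9 CPM against 16.7 and 17.6 CPM. The groups did not overlap, but EV replicate 2 and R882H replicate 1 were close. The log2 fold change was 0.28 ± 0.20 (95% interval −0.14 to 0.70, edgeR adjusted p = 0.289). It was 0.10 without EV replicate 1 and 0.47 without EV replicate 2.

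Tet1 (ENSMUSG00000047146, chromosome 10, 62804570 to 62908996, minus strand) had 5 and 3 counts in EV and 1 and 4 in R882H. These values sit at or near the 3 counts that a count of 0 allows, so no fold is given and a difference was not detectable at this depth.

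As shares of all Tet counts in a library, Tet3 made up 57.6% (Wilson 95% interval 50.1 to 64.8) and 53.7% (46.8 to 60.5) in EV. It made up 42.9% (35.9 to 50.3) and 35% (28.0 to 42.7) in R882H. Tet2 was 39.4% and 44.8% in EV and 56.5% and 62.5% in R882H, so Tet3 was the most counted TET gene in both EV libraries and Tet2 in both R882H libraries. The mean share of Tet3 differed by −16.7 percentage points and that of Tet2 by 17.4, with no overlap between groups. An exact two-sided permutation test over the 4 libraries gave p = 0.333 for each, the smallest value this design allows (adjusted p = 0.833 over the 5 shares tested). These shares do not depend on library scaling, and their intervals cover counting error only.

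**Figure D3:**
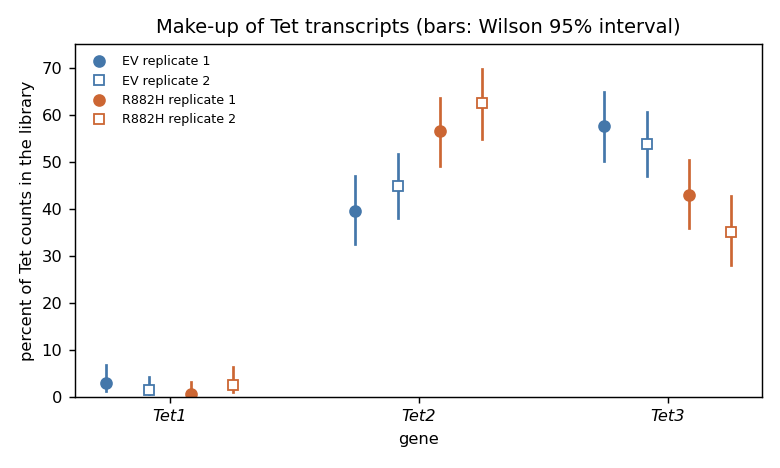
Percent of Tet counts from Tet1, Tet2 and Tet3 in each library, with Wilson 95% intervals; blue is EV and orange R882H. The Tet2 points of R882H (56.5% and 62.5%) lie above those of EV and the Tet3 points (42.9% and 35%) below.

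RefSeq start windows of Tet2 and Tet3 are shown because Tet3 was the called gene and Tet2 is the other well-counted TET gene. These windows, 1 per gene, differ in CpG content. Capitals mark every CpG.
Tet2 chr3:133544341-133544640, minus strand: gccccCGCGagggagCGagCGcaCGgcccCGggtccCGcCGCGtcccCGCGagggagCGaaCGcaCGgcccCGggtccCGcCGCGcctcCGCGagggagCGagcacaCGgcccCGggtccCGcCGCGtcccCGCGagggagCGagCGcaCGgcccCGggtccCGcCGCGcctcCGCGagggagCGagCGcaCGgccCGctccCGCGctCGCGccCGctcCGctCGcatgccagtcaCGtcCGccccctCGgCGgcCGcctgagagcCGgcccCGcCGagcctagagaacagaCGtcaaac
Tet3 chr6:83441629-83441928, minus strand: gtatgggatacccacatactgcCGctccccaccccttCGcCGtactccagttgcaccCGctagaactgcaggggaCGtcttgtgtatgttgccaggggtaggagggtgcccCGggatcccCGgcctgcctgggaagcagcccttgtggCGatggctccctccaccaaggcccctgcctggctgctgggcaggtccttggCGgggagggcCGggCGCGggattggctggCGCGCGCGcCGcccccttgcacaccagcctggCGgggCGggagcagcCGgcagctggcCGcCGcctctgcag
The Tet2 window holds 57 CpGs, more than 99.8% of all windows, and the Tet3 window 22. Among RefSeq windows of each gene, the richest hold 47 CpGs in Dnmt3a, 30 in Dnmt3b, 26 in Tdg and 17 in Tet1. The windows of Tet3 and Tet1 (chr10:62887275-62887574) lie inside their genes, whose annotated 5′ ends are at 83459084 and 62908996. The Tet2 window and the richest Dnmt3a window also lie inside their genes, whose 5′ ends are at 133545139 and 3806007. CpGs at the 5′ ends of these genes were not read. Methylation itself was not measured in these libraries.

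The 3 tested genes with at least 10 CPM whose centred log2 CPM over the 4 libraries came nearest to that of Tet3 were Klf13 (distance 0.055), Usf3 (0.059) and Nelfe (0.067), out of 8503 candidates. Nelfe, a subunit of the negative elongation factor, had 49.9 and 55.2 CPM in EV and 35.5 and 29.0 CPM in R882H. With 4 libraries this likeness is a description only.

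Tdg (ENSMUSG00000034674, chromosome 10, 82629828 to 82650799, plus strand) had 26.2 and 22.8 CPM in EV and 21.2 and 18.1 CPM in R882H. The groups did not overlap, though EV replicate 2 and R882H replicate 1 were close. The log2 fold change was −0.31 ± 0.18 (95% interval −0.68 to 0.05, edgeR adjusted p = 0.170). The pseudogene Tdg-ps had 3 counts in R882H replicate 1 and 0 in the other 3 libraries. Together the TET genes and Tdg gave 10.9% and 8.94% of the counts of the 8 genes in EV and 9.17% and 8.18% in R882H, with overlapping groups.

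**Figure D4:**
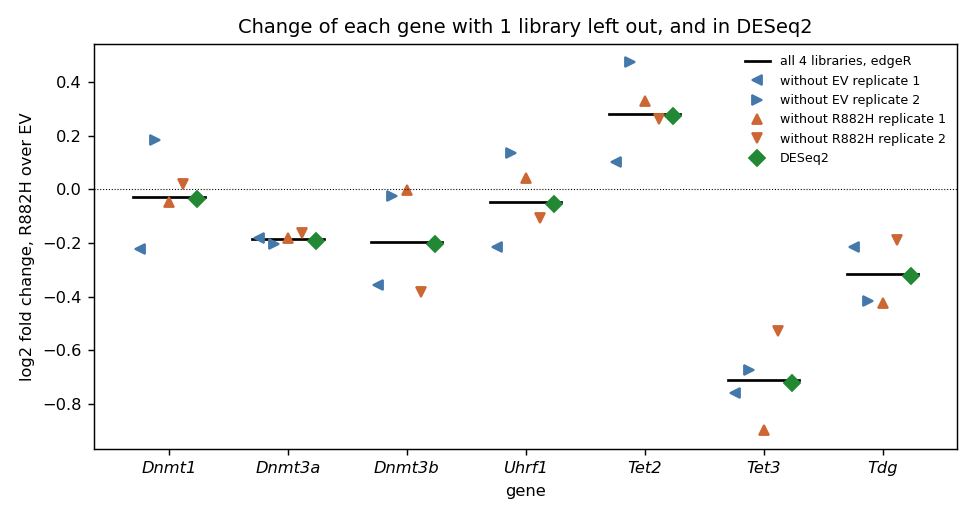
Log2 fold change of each tested gene with all 4 libraries (black line), with 1 library left out (triangles) and in DESeq2 (diamonds). Dnmt3a stays between −0.20 and −0.16, Tet3 stays below −0.5, and Dnmt1 and Uhrf1 fall on both sides of 0.

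Partners of the methyltransferases moved in both directions. Of 15 tested relatives and targeting partners, 5 rose and 3 fell (53.3%, beside 38.8% of all tested genes), with a median log2 fold change of 0.01; without R882H replicate 1 the list held 4 calls. Uhrf2, a paralogue of Uhrf1 that also binds modified cytosine, had 33.0 and 36.2 CPM in EV and 56.1 and 49.9 CPM in R882H. It rose by 0.61 ± 0.15 on the log2 scale (edgeR adjusted p = 0.00155). It supplied 15.1% and 13.3% of the counts of Uhrf1 and Uhrf2 in EV and 22.5% and 18.8% in R882H, a share computed after the values were seen and not tested. Cdca7, which recruits the remodeller HELLS to hemimethylated DNA, rose from 232 ± 7.16 to 372 ± 10.1 CPM (0.68 ± 0.13, adjusted p = 8.17e-05), while Hells itself had 0.04 ± 0.13 and was not called. The histone H3 lysine 36 methyltransferase gene Nsd1, whose mark helps place DNMT3A, fell from 73.3 ± 0.0725 to 47.4 ± 1.49 CPM (−0.63 ± 0.14, adjusted p = 0.000338). Ehmt1, a histone H3 lysine 9 methyltransferase gene, fell (−0.48 ± 0.13) but was not called without R882H replicate 1 (adjusted p = 0.141). Dnmt3l had 1 count over the 4 libraries, and the germline factors Dnmt3c, Dppa3 and Zfp57 had none.

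The CXXC proteins bind unmethylated CpGs, and several sit in complexes with histone-modifying enzymes. Of 9 tested genes in this list, which also held TET partners, 3 rose and 3 fell (66.7%, beside 38.8% of all tested genes). Kmt2a, the MLL methyltransferase gene, had 50.6 and 58.8 CPM in EV and 29.95 and 22.1 CPM in R882H. The log2 fold change was −1.07 ± 0.17 (edgeR adjusted p = 3.18e-06), and its exons overlap those of AC061963.1. Kdm2a, a histone H3 lysine 36 demethylase gene, fell (−0.62 ± 0.14), as did Fbxl19 (−0.75 ± 0.20), which lost its call without EV replicate 2 (adjusted p = 0.166, log2 fold change −0.42). Cxxc1, a subunit of SET1 complexes, rose from 89.3 ± 6.24 to 139 ± 21.6 CPM (0.64 ± 0.14, adjusted p = 0.000316). Ogt, the O-GlcNAc transferase that binds TET proteins, rose (0.42 ± 0.14), with the call lost without EV replicate 1 (adjusted p = 0.104), without R882H replicate 1 (0.370, log2 fold change 0.24) and in DESeq2 (0.101).

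In a list of methyl-CpG readers and other MBD-named genes, calls came at about the background rate, 2 up and 1 down of 9 (33.3%). Zbtb38 fell from 66.2 ± 5.46 to 39.0 ± 6.55 CPM and Mbd1 rose from 46.7 ± 2.30 to 66.2 ± 6.24 CPM. Mbd6, which has a methyl-CpG-binding-like domain, had 58.9 and 79.4 CPM in EV and 113 and 80.9 CPM in R882H. Its log2 fold change was 0.49 ± 0.16 (adjusted p = 0.0131, edgeR). EV replicate 2 and R882H replicate 2 of Mbd6 were nearly equal, and the call was lost without EV replicate 1 (adjusted p = 0.225, log2 fold change 0.28), without R882H replicate 1 (0.380, log2 fold change 0.24) and in DESeq2 (0.0738). Mbd1 was not called without R882H replicate 1 (0.106), where the list held 1 call.

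A list of demethylation and base excision repair genes included 3 that rose and none that fell among 15 tested (20%, beside 38.8% of all tested genes). Neil3, a DNA glycosylase gene expressed in proliferating cells, had 13.9 and 12 CPM in EV and 27.4 and 24.4 CPM in R882H. Its rise was 1.0 ± 0.19 on the log2 scale (edgeR adjusted p = 7.51e-05). Parp1 (0.35 ± 0.13) and the repair polymerase gene Polb (0.45 ± 0.17) rose as well, but neither passed in DESeq2, or with EV replicate 2 or either R882H library left out (adjusted p from 0.0539 to 0.269). Without either R882H library and in DESeq2 the list held 1 call. The exons of Polb overlap Gm26909. Neither Mbd4 nor Smug1, which also encode DNA glycosylases, was called (0.34 ± 0.22 and 0.44 ± 0.19).

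Substrate and cofactor enzymes were also read, and the shares called are to be set beside the 38.8% of all tested genes. In the S-adenosylmethionine cycle, which supplies the methyl group, 1 of 13 tested genes rose and 3 fell (30.8%), and the list held 0 calls without R882H replicate 1 and 2 in DESeq2 or with either replicate 2 left out. Shmt2, the mitochondrial serine hydroxymethyltransferase gene, had 283 and 366 CPM in EV and 210 and 237 CPM in R882H. The log2 fold change was −0.54 ± 0.14 (adjusted p = 0.00232, edgeR). Mtap, the methionine salvage enzyme gene, fell (−0.48 ± 0.13). Neither was called without R882H replicate 1 (adjusted p = 0.105 and 0.0949), and the exons of Shmt2 overlap Ndufa4l2. Mthfd1 fell (−0.38 ± 0.13) and Mat2b rose (0.37 ± 0.14), and both lost their calls in DESeq2 and without EV replicate 2 or either R882H library (adjusted p from 0.0755 to 0.211), as did Mat2b with library size as the only scaling (0.0512). The synthetase gene Mat2a had −0.02 ± 0.13. Among 16 genes that make, use or compete with 2-oxoglutarate, 3 rose and 6 fell (56.2%), or 5 calls in all without R882H replicate 2. The transaminase genes Got1 (−0.77 ± 0.14), Bcat1 (42.0 ± 1.01 to 22.8 ± 0.288 CPM, −0.88 ± 0.17) and Bcat2 (−0.92 ± 0.20) fell, as did Ogdh (−0.73 ± 0.13), and Glud1, the glutamate dehydrogenase gene, rose from 289 ± 29.6 to 437 ± 6.10 CPM (0.60 ± 0.13). The exons of Bcat2 overlap 0610005C13Rik. Idh1 and Idh2, whose mutant forms inhibit TET enzymes, had 0.03 ± 0.14 and 0.31 ± 0.13 (edgeR adjusted p = 0.885 and 0.0604) and were not called.

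**Figure D5:**
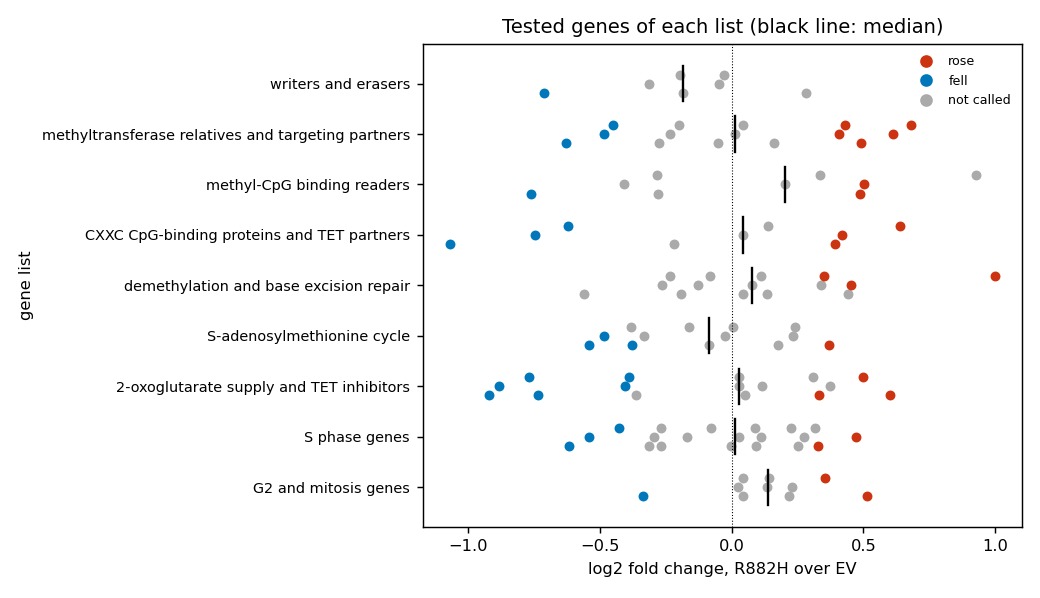
Log2 fold change of each tested gene in 9 lists, R882H over EV, coloured by call, with the list median as a black line. The writers and erasers hold 1 called gene of 7, and the 2-oxoglutarate list holds 9 of 16.

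Other features of the libraries moved with the groups, and their part in these values was not tested. Of 15 myeloid progenitor markers, all tested, 4 rose and 3 fell (46.7%, beside 38.8% of all tested genes). Their summed levels were 3456 to 3502 CPM in EV and 5296 to 5344 CPM in R882H. Cd34 (1288 to 1404 CPM) and Ctsg (677 to 1171 CPM) were high in every library. Most of the higher sum came from Mpo, which rose from 32.7 ± 3.19 to 1242 ± 40.5 CPM. The others that rose were Kit (1.55 ± 0.17), Flt3 (0.65 ± 0.14) and Ctsg (0.61 ± 0.14). The 3 that fell were Csf2ra (−1.18 ± 0.19), Cebpa (−0.74 ± 0.14) and Hoxb8, at low counts (25 and 44 in EV, 15 and 4 in R882H). As for Dnmt3a, a Hoxb8 cDNA without the gene's own 3′ tail would not be counted at the same place. These counts therefore cannot be taken as the level of forced Hoxb8. B lineage markers summed to 548 to 567 CPM in EV and 1664 to 1676 CPM in R882H. Of these markers, 7 of 7 tested rose, beside 19.3% of all tested genes called higher. Mast cell and basophil markers summed to 91.1 to 95.1 CPM in EV and 406 to 417 CPM in R882H, mainly through Cpa3 (21.3 and 23.7 CPM in EV, 288 and 312 CPM in R882H), while Gata2 fell (−0.86 ± 0.17) and Fcer1a was at 0 throughout. Megakaryocyte markers summed to 873 to 1060 CPM in EV, nearly all from Pf4, and to 22.5 to 26.9 CPM in R882H. Of 4 tested, Pf4 and Ppbp fell and Itga2b rose (75%, beside 38.8% of all tested genes). Itga2b was low, at 2.33 ± 0.446 CPM in EV and 5.99 ± 0.524 CPM in R882H (1.35 ± 0.38). T lineage markers summed to 30.4 and 33.0 CPM in EV and 27.6 and 24.2 CPM in R882H. Most of this sum was Gata3 (23.7 and 24.7 CPM in EV, 26.3 and 22.6 CPM in R882H), which was not called. Lck fell from 7.45 ± 1.20 to 1.02 ± 0.208 CPM, and Cd3e, Cd3g, Cd4 and Cd8a were at 0. Erythroid markers summed to 14.1 and 10.9 CPM in EV and 9.37 and 8.78 CPM in R882H, with Hba-a1 and Epor at 0. All 5 fibroblast markers were at 0.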

How the data were processed

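RNA of 4 mouse Hoxb8 libraries was measured with a 3′ tag kit, per the labels' protocols. The authors deposited 1 table of raw counts per Ensembl gene; the submitters' processing notes name the build mm10, HISAT2 2.0.4, Subread featureCounts (2.0.0) and cutadapt 1.14, without roles. For annotation, strand and multiply mapped reads, settings are not given in the sources used. Columns were matched to libraries through the sample descriptions. Of 52636 IDs, 52489 matched a symbol and position in GENCODE M21 (GRCm38, the assembly of mm10). None of the 8 genes has exons that overlap another gene with at least 10 counts.

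Here, the test was that of edgeR 4.0.16 under R 4.3.3 (filterByExpr, TMM, robust glmQLFit, glmQLFTest, Benjamini-Hochberg over 11444 genes, threshold 0.05), after a check on simulated data. A standard error is |log2 fold change| divided by the root of the F statistic. Libraries of a group correlated with r = 0.986 and 0.988, and with 0.900 to 0.908 across groups. Counts within a group differed beyond sampling noise (chi-square over degrees of freedom 6.91 and 4.61). Alternatives included DESeq2 1.42.0, other scalings and filters, a replicate block and leaving out each library. RefSeq promoter windows were found for 8 of 8 genes. Members and lists were chosen with earlier results of these data known. Genes named from each list were its called genes with the smallest p (up to 4, and up to 2 in the other direction), the 3 markers with the most counts, and the 3 genes most like each called member; others were named after their values were seen.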

Additional observations from a re-analysis of the deposited data

How the results depend on the processing

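Directions of Dnmt3a, Dnmt3b, Tet2, Tet3 and Tdg held in all 12 alternatives run. Those of Dnmt1 turned without EV replicate 2 (0.18) and R882H replicate 2 (0.02; range with 1 library left out −0.22 to 0.18), and those of Uhrf1 without EV replicate 2 (0.13) and R882H replicate 1 (0.04; range −0.22 to 0.13). The T lineage marker Gata3, not called, turned without EV replicate 1 (−0.02) and R882H replicate 1 (−0.082; range −0.082 to 0.13). The count of called writers and erasers was 1, Tet3, with all 4 libraries and 0 in DESeq2. Tet3 also lost its call without EV replicate 2 and without R882H replicate 2. With 1 library left out, 1508 to 2065 genes were called higher and 1446 to 2168 lower, beside 2213 and 2222. DESeq2 called 1401 higher and 1517 lower. The cause was not tested. The replicate number shared between groups marks no stated pairing, and deviations of EV 1 and R882H 1 correlated at −0.003. With the replicate block 4425 genes were called and 1 of the 7, Tet3 (adjusted p = 0.00510, edgeR), and 1 of 10 G2 and mitosis genes in place of 3. A count of about 100 per library, as for Tet2 and Tet3, limits precision, and Tet1 was below what this depth resolves.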
